A study of Mus musculus with 6 samples.

Results

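The BCL2 family is the set of proteins that decides whether mitochondria release the factors that start apoptosis. Livers of high-fat diet (HFD)-fed mice were compared for 10 of its genes, which were Bcl2, Bcl2l1, Mcl1, Bax, Bak1, Bid, Bad, Bbc3, Pmaip1 and Bcl2l11. They were chosen by name and found by matching the gene identifiers of the count data to symbols in the GENCODE annotation of the mouse genome build GRCm39. All 10 were among the 55357 genes counted, and all 10 were also among the 14433 genes with enough reads to be tested. Of these 10 genes, 3 encode anti-apoptotic and 7 encode pro-apoptotic proteins. No member passed a p-value under 0.05 together with a fold change over 1.5, the study's thresholds, read here with the unadjusted p-value, while 3.13% of all genes tested did. The p-value alone was under 0.05 for 2 members, Bcl2l1 and Bak1, and for 11.9% of all genes tested (edgeR). Bcl2l1, which encodes the survival protein BCL-XL, was 1.40-fold as abundant with esculetin as with vehicle and was the only member whose 3 esculetin libraries all lay above the 3 vehicle libraries, as was the case for 9.20% of all genes tested.

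Liver RNA was sequenced from wild-type male C57BL/6J mice aged 8 to 9 weeks that were gavaged for 7 days with either 2.5% Tween-80, the vehicle, or esculetin, a plant coumarin. Every mouse, vehicle mice included, ate a control diet with 10% of kcal from fat for 4 days and then an HFD with 60% of kcal from fat for 3 days, so no group without the HFD enters this comparison. Each group had 3 libraries, and each library was made from the pooled livers of a pair of mice. For the esculetin dose, titles read 180 mg/kg/d and another label field reads 90 mg/kg/d. The names of the count columns also hold 180. Because the labels conflict, no dose is used below. The question addressed by this comparison was whether esculetin altered apoptosis-associated genes in the liver.

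The family works by binding between its own members. Anti-apoptotic members such as BCL2, BCL-XL and MCL1 hold the pore-forming effectors BAX and BAK in check on the outer mitochondrial membrane. The BH3-only proteins, which include BID, BIM, BAD, PUMA and NOXA, are released or made under stress and either occupy the groove of the anti-apoptotic members or activate the effectors directly, after which cytochrome c leaves the mitochondria and caspases are activated. Hepatocytes depend on BCL-XL and MCL1 in particular, and BID links death receptors to the mitochondria in these cells. Much of this control acts on the proteins, through binding, phosphorylation, cleavage and degradation, and was not measured by RNA sequencing.

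A part shared by all members is the BH3 motif, and its coding sequence is shown because all 3 roles carry it. The motif was searched as 8 codons, namely a leucine codon, any 2 codons, a codon for alanine, isoleucine, methionine or valine, a codon for glycine, alanine or serine, an aspartate codon, any codon, and a codon for phenylalanine, isoleucine, leucine, methionine or valine. It was looked for in frame on the coding strand of the Ensembl canonical transcript of each gene. Of the 10 members, 9 held it exactly once and are printed, and Pmaip1 held 2 matches and is not printed. The pattern describes the BH3 motif of this family, so matches in its members were to be foreseen and are no result. Of all 21770 canonical coding transcripts, 623 (2.862%) held it at least once. Each run holds 48 bases in coding direction from GRCm39, in the order of the roles, with the 8 core codons in capitals and 4 codons on each side in lower case.
Bcl2l1: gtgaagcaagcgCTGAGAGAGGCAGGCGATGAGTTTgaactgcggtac
Mcl1: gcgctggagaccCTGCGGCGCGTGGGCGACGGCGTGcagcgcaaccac
Bcl2: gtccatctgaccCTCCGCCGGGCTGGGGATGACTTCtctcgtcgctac
Bak1: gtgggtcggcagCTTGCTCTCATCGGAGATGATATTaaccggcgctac
Bax: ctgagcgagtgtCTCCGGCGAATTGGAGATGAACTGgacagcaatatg
Bid: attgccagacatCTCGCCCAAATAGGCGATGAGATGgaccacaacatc
Bad: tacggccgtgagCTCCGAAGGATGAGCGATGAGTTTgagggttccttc
Bcl2l11: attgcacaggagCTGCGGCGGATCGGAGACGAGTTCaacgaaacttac
Bbc3: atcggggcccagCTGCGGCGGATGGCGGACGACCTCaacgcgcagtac

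All 9 runs lie in coding exons. Those of Bcl2l1 (chr2:152671608-152671655, minus strand, exon 2 of 3, codons 86 to 101), Mcl1 (chr3:95566735-95566782, plus strand, exon 1 of 3, codons 190 to 205) and Bcl2 (chr1:106640296-106640343, minus strand, exon 1 of 2, codons 90 to 105) belong to the anti-apoptotic members. The runs of Bak1 (chr17:27241496-27241543, minus strand, exon 4 of 6, codons 72 to 87) and Bax (chr7:45115412-45115459, minus strand, exon 3 of 6, codons 59 to 74) belong to the effectors. Those of Bid (chr6:120874241-120874288, minus strand, exon 4 of 6, codons 86 to 101), Bad (chr19:6928148-6928195, plus strand, exon 2 of 3, codons 105 to 120), Bcl2l11 (chr2:127989058-127989105, plus strand, exon 3 of 4, codons 146 to 161) and Bbc3 (chr7:16047686-16047733, plus strand, exon 3 of 4, codons 137 to 152) belong to the BH3-only members. Among the 24 core bases, Bbc3 and Bcl2l11 shared 19, the most of any pair, and 7 pairs shared 11, the fewest, among them Bak1 with each of Bbc3, Bcl2, Bcl2l1 and Mcl1. The coding sequences of these 9 genes ran from 162 codons in Bad to 331 codons in Mcl1. A match of these letters is a description of the sequence and says nothing of how strongly the proteins bind.

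Levels were compared between members per exon length, as TPM (counts divided by the length of the merged exons and scaled to the same total in each library). The order of the mean TPM over the 6 libraries was Mcl1, Bcl2l1, Bak1, Bax, Bad, Bid, Bcl2l11, Bbc3, Pmaip1 and Bcl2. Mcl1, whose protein turns over rapidly and protects hepatocytes, stood at 131 ± 4.52 TPM with vehicle and 140 ± 26.9 TPM with esculetin (mean ± SD, n = 3 libraries in each group, as in all values below). Bcl2l1 followed at 14.3 ± 1.56 and 19.6 ± 0.776 TPM. Bcl2, the founding member of the family, was the lowest at 0.599 ± 0.205 and 0.653 ± 0.141 TPM. The anti-apoptotic members thus occupied both ends of the order.

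The pro-apoptotic members lay between these ends. The effectors Bak1 and Bax had a mean over all libraries of 10.5 and 8.64 TPM, and Bad and Bid had 8.57 and 5.24 TPM. Bcl2l11, Bbc3 and Pmaip1 had 2.60, 2.18 and 2.09 TPM. The ranges over the 6 libraries overlapped between Bcl2l1 and Bak1, Bak1 and Bax, Bax and Bad, Bcl2l11 and Bbc3, and Bbc3 and Pmaip1, so these neighbours were not separated over all libraries. Within each group, however, Bcl2l1 lay above Bak1 without overlap, from 12.8 to 15.9 against 8.18 to 10.4 TPM with vehicle and from 18.9 to 20.4 against 9.15 to 14.0 TPM with esculetin. Mcl1 was separated from Bcl2l1, Bad from Bid, Bid from Bcl2l11, and Pmaip1 from Bcl2. With the longest annotated transcript in place of the merged exons, Mcl1 (104.8 TPM) and Bcl2l1 (19.2 TPM) stayed at the top and Bcl2 (0.617 TPM) at the bottom, while Bak1 (8.24 TPM) moved below Bad (13.4 TPM), Bax (11.3 TPM) and Bid (8.72 TPM).

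**Figure D1:**
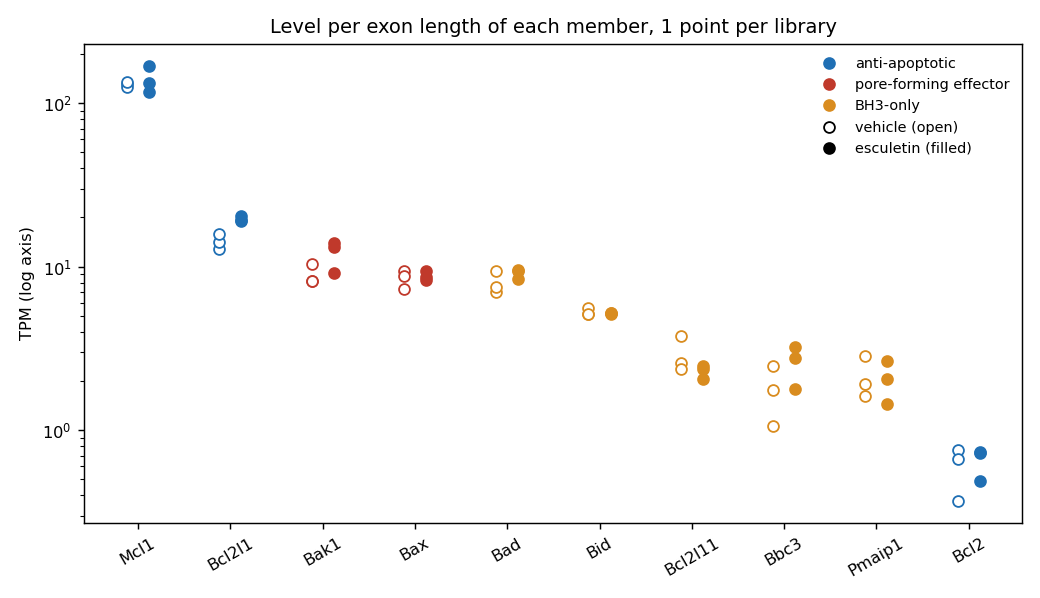
TPM of each member on a log axis, with 1 point per library, open for vehicle and filled for esculetin, ordered by the mean over the 6 libraries and colored by role. Mcl1 lies between 117 and 169 TPM in every library, above all other members, and Bcl2 lies under 1 TPM.

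Total counts ran from 27957713 to 31889710 in the vehicle libraries and from 32883985 to 34920922 in the esculetin libraries, without overlap. The share of counts in mitochondrial genes also did not overlap, at 7.31% to 7.62% with vehicle and 6.87% to 7.26% with esculetin, and the part of depth or of this share in the results for the members, Bcl2l1 included, was not tested. Within each library, values of a gene are given as CPM, the count relative to the library total after scaling by the trimmed mean of M-values (TMM), whose factors lay between 0.979 and 1.02. A gene with 3 counts, the limit that a count of 0 allows, would have between 0.0865 and 0.109 CPM, and the lowest count of any member in any library was 29, for Bcl2. Markers showed liver tissue in every library, with the 8 hepatocyte markers summing to between 93632 and 98642 CPM with vehicle and between 89154 and 98098 CPM with esculetin. In whole tissue, fewer cells of a type and less RNA per cell cannot be told apart.

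Bcl2l1 had the smallest p-value of the 10 members. It lies on the minus strand at chr2:152622582-152673655 and encodes BCL-XL, which binds BAX, BAK and BH3-only proteins (its BH3 core is printed above). Bcl2l1 stood at 19.0, 21.3 and 25.1 CPM in vehicle libraries 1 to 3 and at 32.5, 29.7 and 29.1 CPM in esculetin libraries 1 to 3. The lowest esculetin library was above the highest vehicle library, which was vehicle 3. Over all genes tested, 17.4% had groups that did not overlap, 9.20% with the esculetin libraries higher and 8.24% with them lower. The means were 21.8 ± 3.08 and 30.4 ± 1.81 CPM, a log2 fold change of 0.48 (standard error 0.11, 95% interval 0.23 to 0.73). The unadjusted p-value was 0.00166 and the Benjamini-Hochberg adjusted p-value over all genes tested was 0.170 in edgeR's quasi-likelihood test. An unadjusted p-value under 0.05 was reached by 11.9% of all genes tested and an adjusted one by 0.0416%.

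The size of the Bcl2l1 difference missed the 1.5-fold threshold, and its interval included that threshold. It kept an unadjusted p-value under 0.05 in all 13 alternative analyses, with log2 fold changes between 0.46 and 0.49 over all libraries and between 0.39 and 0.59 when a library was left out. The adjusted p-value of Bcl2l1 depended on the analysis, running from 0.00360 to 0.275 with all 6 libraries and from 0.107 to 0.491 with a library left out (edgeR, DESeq2 or limma). Without vehicle library 3, whose Bcl2l1 level was the highest of its group, the log2 fold change was 0.59 and passed both thresholds. Counts per gene do not separate the splice forms of Bcl2l1, whose long and short products act in opposite directions. Gm74855, not analysed here, overlaps 9.3% of the Bcl2l1 exon bases on the opposite strand.

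Mcl1 and Bcl2, the other anti-apoptotic members, did not differ between the groups beyond the spread between libraries. Mcl1 (plus strand, chr3:95566026-95570487) stood at 133, 129 and 146 CPM with vehicle and at 126, 142 and 173 CPM with esculetin. Both the lowest and the highest Mcl1 value belonged to esculetin libraries, 1 and 3. Its log2 fold change was 0.12 (standard error 0.11, 95% interval -0.14 to 0.37, unadjusted p = 0.332, edgeR), and without esculetin library 3 it was -0.016. Bcl2 (minus strand, chr1:106465908-106642060) stood at 0.987, 2.06 and 1.90 CPM with vehicle and at 1.40, 2.08 and 1.97 CPM with esculetin. The low Bcl2 values were those of library 1 in either group, and the groups overlapped. Its log2 fold change was 0.14 (standard error 0.32, 95% interval -0.58 to 0.86, unadjusted p = 0.672, edgeR), and it turned to -0.12 without vehicle library 1. Bcl2 rested on 29 to 72 counts per library, and its interval included a 1.5-fold higher level.

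**Figure D2:**
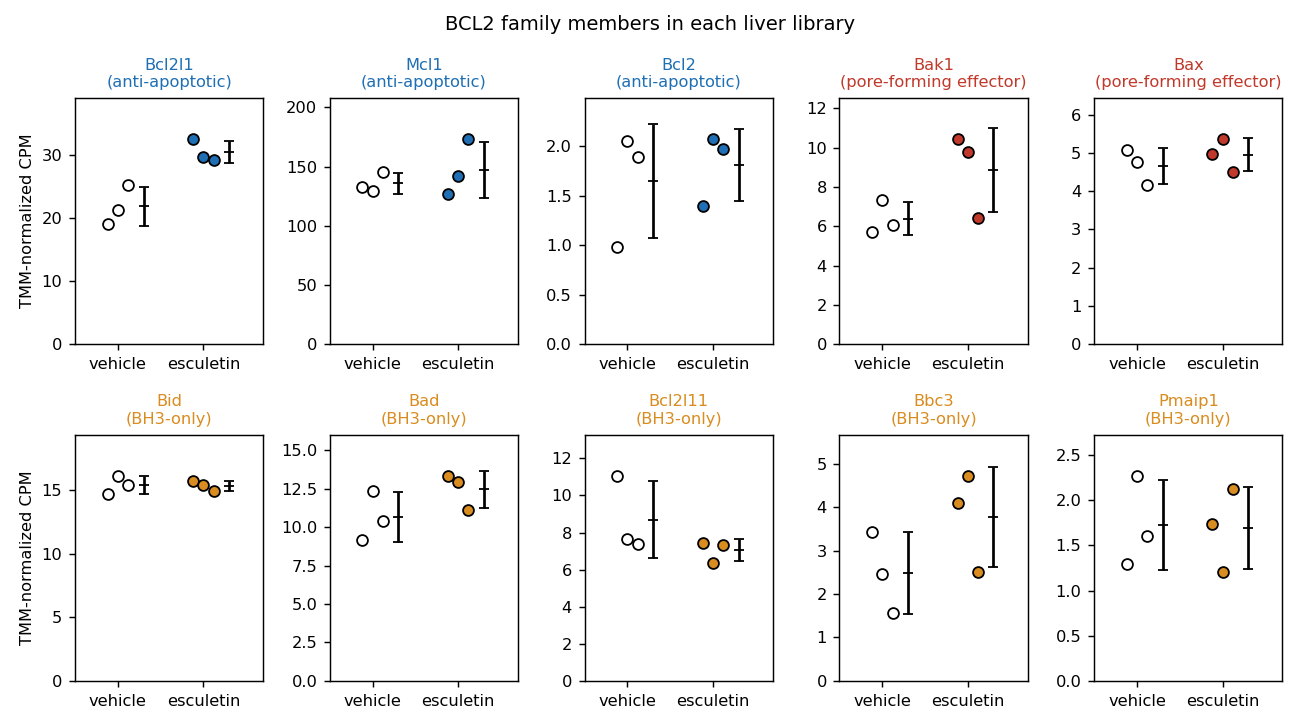
TMM-normalized CPM of the 10 members, with open points for the 3 vehicle libraries, filled points for the 3 esculetin libraries, drawn in the order of library numbers, and bars for the mean ± SD of each group. Each panel has its own axis from 0, and the groups are separated for Bcl2l1 only, with 25.1 CPM the highest vehicle value and 29.1 CPM the lowest esculetin value.

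The effectors Bak1 and Bax encode the proteins that form the pore in the outer mitochondrial membrane. Bak1 (minus strand, chr17:27238784-27247983) stood at 5.72, 7.34 and 6.09 CPM with vehicle and at 10.4, 9.77 and 6.45 CPM with esculetin. Esculetin libraries 1 and 2 lay above every vehicle library, whereas esculetin library 3 lay within the vehicle range. The means were 6.38 ± 0.846 and 8.89 ± 2.14 CPM, a log2 fold change of 0.48 (standard error 0.20, 95% interval 0.038 to 0.91). Bak1 had an unadjusted p-value of 0.0360 and an adjusted p-value of 0.383 in edgeR's test.

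The Bak1 difference depended on single libraries. Without esculetin library 3 the log2 fold change was 0.66 and without vehicle library 2 it was 0.59, and both passed the 2 thresholds. Leaving out vehicle library 1 or 3, or esculetin library 1 or 2, gave log2 fold changes between 0.35 and 0.45 with unadjusted p-values between 0.0814 and 0.132 (edgeR). With limma-voom, the unadjusted p-value of Bak1 was 0.0567. Ggnbp1, on the opposite strand, overlaps 18.2% of the Bak1 exon bases, and the library kit did not mark strand. Ggnbp1 itself stood at 2.94 and 2.86 CPM, with a log2 fold change of -0.046.

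Bax (minus strand, chr7:45111015-45116325) did not differ between the groups beyond the spread between libraries. It stood at 5.07, 4.76 and 4.16 CPM with vehicle and at 4.97, 5.36 and 4.51 CPM with esculetin. The groups overlapped over most of their ranges, and the within-group SD of log2 CPM (0.123) was close to the counting noise that the 114 to 186 counts per library give (0.118). The log2 fold change of Bax was 0.085 (standard error 0.16, 95% interval -0.27 to 0.44, unadjusted p = 0.606, edgeR), so its interval left out a change of 1.5-fold in either direction.

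Of the 5 BH3-only members, 0 had an unadjusted p-value under 0.05 in edgeR's test, against 11.9% of all genes tested. Bbc3, which encodes PUMA, a p53 target that binds all anti-apoptotic members, had the largest log2 fold change of the 10 members. Bbc3 (plus strand, chr7:16042318-16052130) stood at 3.44, 2.46 and 1.57 CPM with vehicle and at 4.10, 4.73 and 2.51 CPM with esculetin. Esculetin libraries 1 and 2 were above all vehicle libraries, and esculetin library 3 lay among the vehicle libraries, as it did for Bak1. The means were 2.49 ± 0.936 and 3.78 ± 1.14 CPM, and the log2 fold change was 0.60 (standard error 0.32, 95% interval -0.11 to 1.31, unadjusted p = 0.0877, adjusted p = 0.496, edgeR). Its libraries spread more than those of any other member, with a within-group SD of 0.442 in log2 CPM against a counting noise of 0.157. Bbc3 passed both thresholds with no filter on low counts (log2 fold change 0.61, unadjusted p = 0.0133, edgeR), without vehicle library 1 (log2 fold change 0.90) and without esculetin library 3 (0.83), and had a log2 fold change of 0.36 without vehicle library 3.

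Bcl2l11 had a lower and Bad a higher mean with esculetin, and neither had an unadjusted p-value under 0.05 (edgeR). Bcl2l11 (plus strand, chr2:127967958-128004476) encodes BIM, which activates BAX and BAK directly. It stood at 11.1, 7.64 and 7.37 CPM with vehicle and at 7.43, 6.37 and 7.35 CPM with esculetin. Vehicle library 1 was far above the other 5 libraries, which lay close together. The log2 fold change of Bcl2l11 was -0.30 (standard error 0.18, 95% interval -0.70 to 0.094, unadjusted p = 0.120, edgeR), and without vehicle library 1 it was -0.091. Bad (plus strand, chr19:6918902-6929280) encodes a BH3-only protein that binds BCL2 and BCL-XL and is held inactive by phosphorylation under growth factor and insulin signaling. It stood at 9.16, 12.4 and 10.4 CPM with vehicle and at 13.3, 12.9 and 11.1 CPM with esculetin. Vehicle library 2 overlapped the esculetin libraries, and the log2 fold change was 0.23 (standard error 0.14, 95% interval -0.087 to 0.54, unadjusted p = 0.139, edgeR). With a library left out the log2 fold change of Bad ran from 0.13 to 0.35. Only without vehicle library 2, where it was 0.35, was the unadjusted p-value under 0.05 (0.0392, edgeR). Gpr137 overlaps 20.4% of the Bad exon bases on the opposite strand and stood at 9.60 and 9.79 CPM, and Gm56656, not analysed here, overlaps 25.2%.

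Bid and Pmaip1 had log2 fold changes close to 0, with very different precision. Bid (minus strand, chr6:120862525-120894171), which is cut by caspase-8 to carry the death receptor signal to mitochondria, stood at 14.7, 16.1 and 15.4 CPM with vehicle and at 15.7, 15.4 and 14.9 CPM with esculetin. All 6 libraries lay close together, and the within-group SD of log2 CPM was 0.0538, the lowest of the 10 members. The log2 fold change of Bid was -0.0062 (standard error 0.095, 95% interval -0.22 to 0.21, unadjusted p = 0.949, edgeR). Bcl2l13, on the opposite strand, overlaps 31.2% of the Bid exon bases and stood at 33.2 CPM in both groups, and without strand the reads of the shared bases cannot be told apart.

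Pmaip1 (plus strand, from 66591604 to 66598636 on chromosome 18) encodes NOXA, which binds MCL1 in particular. It stood at 1.29, 2.27 and 1.60 CPM with vehicle and at 1.74, 1.21 and 2.12 CPM with esculetin. High and low values occurred in both groups. Its log2 fold change was -0.033 (standard error 0.31, 95% interval -0.73 to 0.66, unadjusted p = 0.917, edgeR), and it turned to 0.22 without vehicle library 2. With 38 to 74 counts per library, the interval of Pmaip1 covered changes of 1.5-fold in either direction.

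**Figure D3:**
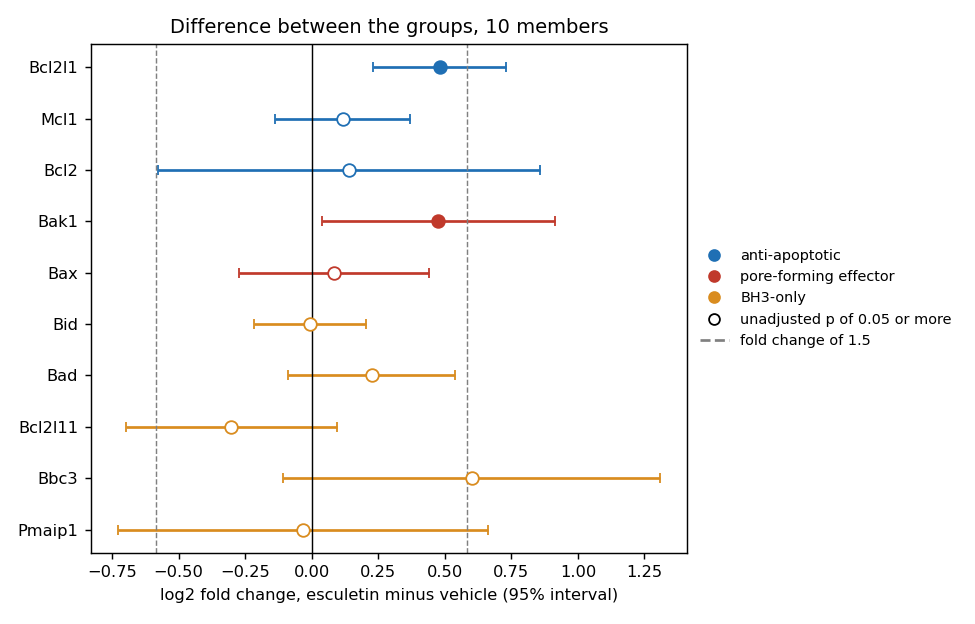
Log2 fold change of each member, esculetin minus vehicle, with its 95% interval from edgeR, colored by role, with filled points for an unadjusted p-value under 0.05 and dashed lines at a fold change of 1.5. The intervals of Bcl2l1 (0.23 to 0.73) and Bak1 (0.038 to 0.91) leave out 0, and those of the other 8 members include it.

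Read by role, the anti-apoptotic and pro-apoptotic members did not form opposite groups. The log2 fold change was above 0 for 3 of 3 anti-apoptotic and 4 of 7 pro-apoptotic members, and it was above 0 for 48.5% of all genes tested. The median log2 fold change was 0.14 for the anti-apoptotic and 0.085 for the pro-apoptotic members, against -0.0080 for all genes tested. The order of the 2 medians turned without vehicle library 1 (0.10 and 0.13), without esculetin library 2 (0.14 and 0.16) and without esculetin library 3 (0.080 and 0.15), and the difference between them was largest without vehicle library 3 (0.25 and 0.012). Without vehicle library 2 the medians were 0.34 and 0.22, and without esculetin library 1 they were 0.30 and 0.082. Within the pro-apoptotic members, the 2 effectors had a median of 0.28 and the 5 BH3-only members a median of -0.0062. The median size of a log2 fold change over all genes tested, sign left aside, was 0.148, and 90% of all genes lay between -0.56 and 0.46. Bcl2l1, Bak1 and Bbc3 lay above the upper of these bounds and no member lay below the lower bound. An unadjusted p-value under 0.05 was found for 2 of the 10 members, both higher with esculetin, where 6.53% of all genes tested were higher and 5.32% lower at that p-value.

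The balance between the roles was also computed in each library from TPM. The summed TPM of the 7 pro-apoptotic members divided by that of the 3 anti-apoptotic members was 0.261, 0.293 and 0.220 with vehicle and 0.324, 0.289 and 0.200 with esculetin. The esculetin libraries held both the highest and the lowest ratio, and the means were 0.258 ± 0.0365 and 0.271 ± 0.0637. With the longest transcript as length the means of this ratio were 0.407 and 0.411. The sum of the anti-apoptotic members was mostly Mcl1, which made up 89.8% ± 0.955 of it with vehicle and 87.1% ± 2.29 with esculetin. Bcl2l1 made up 8.85%, 10.0% and 10.5% of that sum with vehicle and 14.8%, 12.4% and 10.2% with esculetin. Esculetin libraries 1 and 2 lay above the vehicle range for this share, and esculetin library 3, which had the most Mcl1, lay within it.

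The ratio of Bax to Bcl2l1 was 0.738, 0.618 and 0.458 with vehicle and 0.424, 0.4997 and 0.429 with esculetin. Vehicle libraries 1 and 2 were above all esculetin libraries and vehicle library 3 was not, so the groups overlapped, with means of 0.605 ± 0.140 and 0.451 ± 0.0426. The widely used ratio of Bax to Bcl2 was 25.5, 11.5 and 10.9 with vehicle and 17.6, 12.8 and 11.4 with esculetin. The high Bax to Bcl2 value of vehicle library 1 came with its low Bcl2 level of 0.987 CPM. Among the summed levels, the effectors had 17.4 ± 1.84 and 20.9 ± 3.04 TPM, the BH3-only members 20.1 ± 2.12 and 21.3 ± 0.720 TPM, and the anti-apoptotic members 146 ± 5.49 and 160 ± 26.6 TPM. The groups overlapped for each of these sums. The share of Bid in the BH3-only sum was 25.7%, 25.3% and 28.4% with vehicle and 23.6%, 24.1% and 25.3% with esculetin. For this share the esculetin libraries lay below the vehicle libraries, although the nearest libraries of the groups both round to 25.3%.

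**Figure D4:**
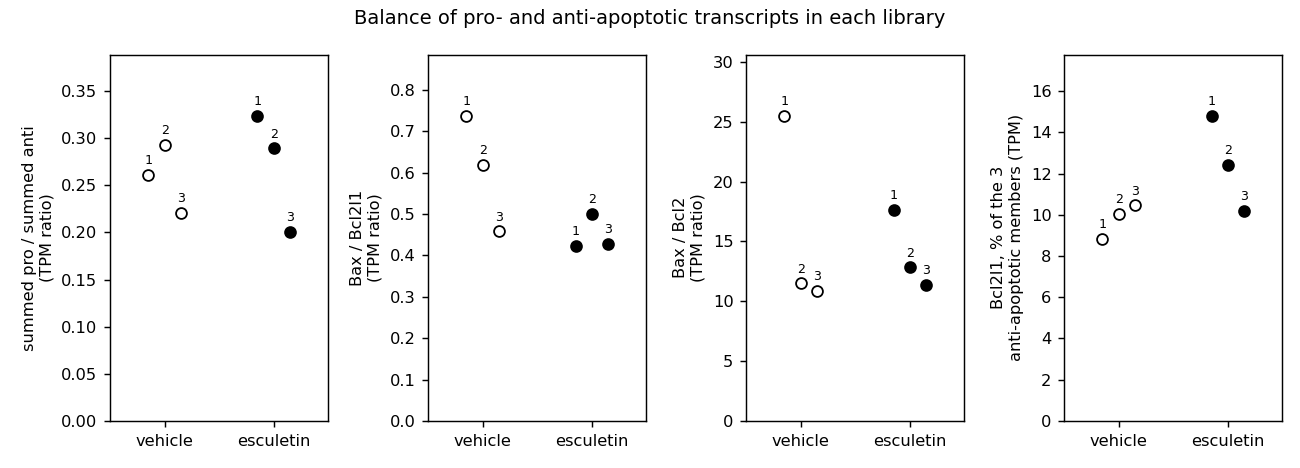
Ratios of TPM in each library, numbered within its group, with open points for vehicle and filled points for esculetin, for the summed pro- over anti-apoptotic members, Bax over Bcl2l1, Bax over Bcl2, and the percentage of Bcl2l1 among the 3 anti-apoptotic members. The groups overlap in all 4 panels, as in the first, where the means are 0.258 and 0.271.

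The rest of the family was described from a list of 16 further genes, of which 11 were tested, 0 rose and 0 fell past both thresholds, against 3.13% called over all genes tested. Bmf, a BH3-only gene, was lower with esculetin (30.5 ± 3.01 and 24.8 ± 0.362 CPM, log2 fold change -0.30, standard error 0.093, unadjusted p = 0.00941, adjusted p = 0.258, edgeR). Bnip3, which encodes a mitochondrial BH3-like protein with a role in mitophagy, was higher (131 ± 13.9 and 173 ± 27.2 CPM, log2 fold change 0.39, standard error 0.12, unadjusted p = 0.00962, adjusted p = 0.262, edgeR). The groups did not overlap for either gene, as for 17.4% of all genes tested, and the median log2 fold change of the 11 genes was 0.086. Hrk, Bcl2a1b, Bcl2l10 and Bcl2l15 had too few counts to be tested, with 6, 26, 0 and 2 counts over all libraries, and Bcl2l16 was not matched to the annotation.

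Downstream of the mitochondria, 0 of 19 genes of the apoptosome and caspase list passed both thresholds, against 3.13% of all genes tested, and their median log2 fold change was -0.047. Casp9, which encodes the initiator caspase activated by cytochrome c and APAF1, was lower with esculetin (16.0 ± 1.37 and 12.0 ± 1.44 CPM, log2 fold change -0.41, standard error 0.12, unadjusted p = 0.00797, adjusted p = 0.252, edgeR). Birc3, a gene of the inhibitor of apoptosis family, was also lower (17.98 ± 0.554 and 15.3 ± 0.775 CPM, log2 fold change -0.24, unadjusted p = 0.0304, adjusted p = 0.365, edgeR). The largest change of the list was that of Dffb, a nuclease that cuts DNA in apoptosis, at 2.63 ± 0.178 and 1.91 ± 0.247 CPM (log2 fold change -0.46, standard error 0.21, unadjusted p = 0.0587, edgeR). The esculetin libraries lay below the vehicle libraries without overlap for 6 of the 19 genes and above them for 0, where 8.24% and 9.20% of all genes tested did so.

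In the death receptor list, 0 of 8 genes tested passed both thresholds and 0 had an unadjusted p-value under 0.05 (edgeR), where 3.13% and 11.9% of all genes tested did so. Its largest log2 fold change was 0.24 for the receptor gene Fas (13.5 ± 1.59 and 16.0 ± 2.81 CPM, standard error 0.14, unadjusted p = 0.123, edgeR). Fasl, Tnf and Tnfrsf10b had 16, 16 and 46 counts over all libraries and were not tested.

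Regulators that control the members' transcription, stability or activity gave 30 genes tested, of which 0 passed both thresholds, 6 were higher and 1 lower at an unadjusted p-value under 0.05, and the median log2 fold change was 0.045. Over all genes tested, 6.53% were higher and 5.32% lower at that p-value, and 3.13% passed both thresholds. Foxo1, an insulin-regulated transcription factor that can activate Bcl2l11 and Bbc3, was higher with esculetin (48.2 ± 7.60 and 69.3 ± 2.13 CPM, log2 fold change 0.52, standard error 0.11, unadjusted p = 0.000733, adjusted p = 0.136, edgeR). Its groups did not overlap, as for 17.4% of all genes tested, whereas those of Bcl2l11 and Bbc3 did. The part of Foxo1 in the values of Bcl2l11 and Bbc3 was not tested. Btrc, which encodes an F-box protein of a ubiquitin ligase, was lower (13.6 ± 1.16 and 10.1 ± 0.925 CPM, log2 fold change -0.43, unadjusted p = 0.00564, adjusted p = 0.233, edgeR). Pim1, a kinase that phosphorylates BAD, was higher (8.25 ± 1.03 and 10.8 ± 1.77 CPM, log2 fold change 0.39, unadjusted p = 0.0319, edgeR), with overlapping groups. Vdac1, a channel of the outer mitochondrial membrane, Tmbim6, which encodes BAX inhibitor 1, and the co-chaperone genes Bag1 and Bag3 were higher by smaller amounts, with log2 fold changes between 0.21 and 0.28 and unadjusted p-values between 0.0151 and 0.0386 (edgeR). Without vehicle library 3, Foxo1 passed both thresholds, with a log2 fold change of 0.65, and no other gene of the list did so with any library left out.

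**Figure D5:**
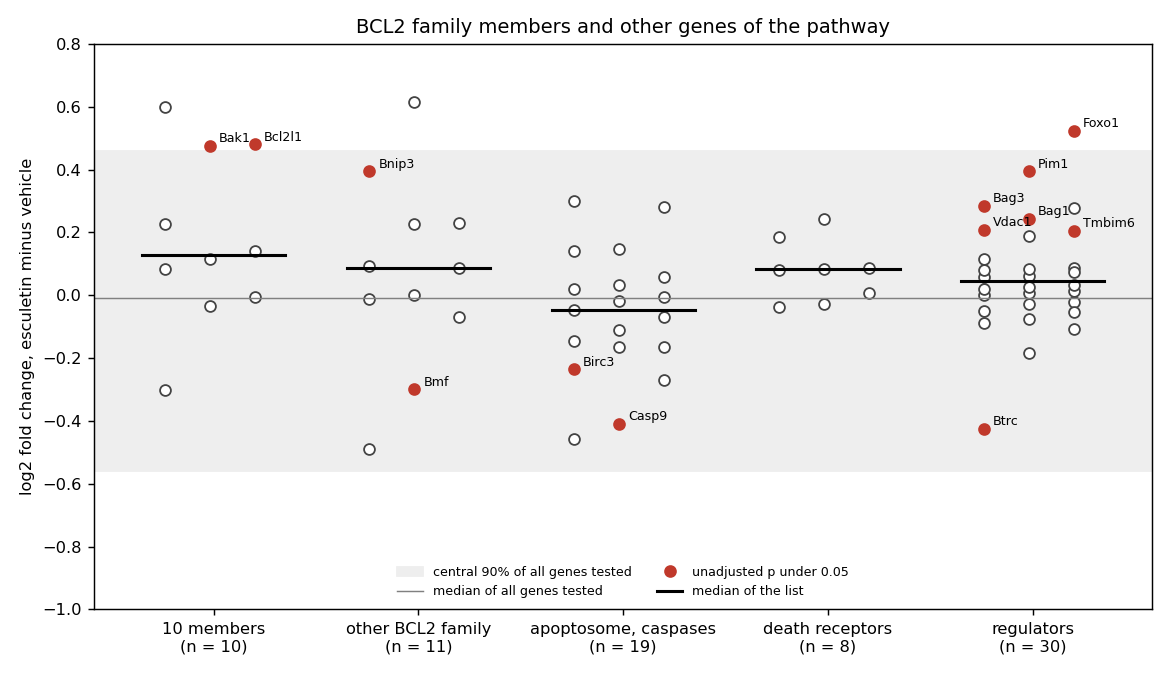
Log2 fold change of each gene tested, esculetin minus vehicle, for the 10 members and the 4 other lists, with filled points for an unadjusted p-value under 0.05, a black bar for the median of each list, a grey band for the central 90% of all genes tested and a grey line for their median. The medians of the lists lie between -0.047 for the apoptosome and caspases and 0.13 for the members.

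Cell type markers were read beside these results because many liver cells express the members. Of 57 markers, 50 were tested, of which 3 rose and 1 fell past both thresholds, where 3.13% of all genes tested did so. These were Des of stellate cells (1.83 and 2.95 CPM), Cd79a of B cells (0.384 and 0.835 CPM) and S100a9 of neutrophils (0.813 and 1.61 CPM), which rose, and Spp1 of cholangiocytes (56.0 and 33.4 CPM), which fell. The other 4 cholangiocyte markers tested had log2 fold changes above 0, from 0.057 for Epcam to 0.63 for Krt7, none passing both thresholds. The hepatocyte marker Serpina1c had a log2 fold change of 0.52 without passing the fold change threshold (unadjusted p = 0.000235, edgeR), and its groups did not overlap. Of 6 proliferation genes, 4 were tested and 0 passed both thresholds or an unadjusted p-value under 0.05 alone (edgeR), and their sum was 5.48 to 6.35 CPM with vehicle and 3.92 to 7.73 CPM with esculetin. The summed markers overlapped between the groups for hepatocytes, Kupffer cells (332 to 437 and 341 to 353 CPM), endothelial cells (236 to 284 and 254 to 288 CPM), stellate cells (400 to 459 and 357 to 470 CPM) and cholangiocytes (39.8 to 80.4 and 30.3 to 45.7 CPM). They also overlapped for T or NK cells (4.70 to 5.94 and 3.28 to 6.40 CPM), B cells (2.63 to 2.86 and 2.83 to 4.26 CPM) and neutrophils (3.10 to 4.59 and 2.88 to 6.25 CPM), where Ly6g, a defining neutrophil marker, had 0 counts. The part of cell composition in the values of Bcl2l1, Bak1 and Bbc3 was not tested.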

How the data were processed

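RNA of 6 liver libraries, 3 per group, was sequenced by the authors as paired-end reads. Alignment by the authors used HISAT 2.2.1 and GRCm39, featureCounts assigned the reads to genes, and the deposited values are whole-number counts with no normalization. The annotation release, strand setting and treatment of multi-mapped reads are not given in the sources used here. The labels also list mm10. Libraries were grouped by their titles. Gene symbols, positions and exons came from GENCODE vM39, which named 54749 of the 55357 identifiers.

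Low counts were removed with filterByExpr, TMM was applied, and the groups were tested in R 4.3.3 with edgeR 4.0.16 (quasi-likelihood test) over all 14433 genes kept. The procedure was tested on simulated data. A call needed both an unadjusted p-value under 0.05 and a change over 1.5-fold, after the study's thresholds, whose text does not say whether p was adjusted. Benjamini-Hochberg adjustment covered all genes tested. The standard error was derived from the fold change and the F statistic, and the 95% interval from the t distribution of the fit. TPM used merged exon lengths. Limits from low counts cover counting error only. P-values measure the spread between libraries of pooled mice.

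The members and the other gene lists were chosen with earlier results of these data known. Of each other list except the cell type and proliferation lists the text names every gene called or with an unadjusted p-value under 0.05, and the gene with the largest change among those with a mean of at least 1 CPM. Cell type markers and genes without a test were picked for naming with their values in view. No library was a copy of another (chi-square per gene of 26.2 or more within groups). Alternatives were DESeq2 1.42.0, limma-voom (limma 3.58.1), scaling by total counts or by DESeq2 size factors, a minimum of 10 counts in each library or no filter, leaving out each library, a block for the replicate number, and the longest transcript as length.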

Additional observations from a re-analysis of the deposited data

How the results depend on the processing

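With all libraries, the alternatives changed the number of members passing both thresholds from 0 to 1 with no filter on low counts and to 1 with the replicate block, Bbc3 in both cases (log2 fold change 0.62 with the replicate block), and the other settings gave 0. Leaving out a library gave 0 to 2 members passing. Members with an unadjusted p-value under 0.05 numbered 1 with limma-voom, 3 with no filter and 3 with the replicate block, against 2 in the edgeR analysis reported, and 1 to 3 with a library left out. The same-numbered libraries of the groups did not deviate together (correlations -0.0920, -0.0281 and 0.0190 over genes). These correlations gave no sign of pairing by number, but they do not settle whether the libraries were handled in pairs. Over all genes tested, 776 passed both thresholds with no filter, where 24638 genes were tested, against 452. Genes with an adjusted p-value under 0.05 numbered 193 with DESeq2, 477 with no filter and 15 with the replicate block, against 6 with edgeR, and 2 to 45 with a library left out. Leaving out a library moved the median log2 fold change of the anti-apoptotic members between 0.080 and 0.34 and that of the pro-apoptotic members between 0.012 and 0.22, and the regulators passing both thresholds numbered 0 to 1 (Foxo1). The sign of 4 members changed with a library left out. The ranges were -0.12 to 0.34 for Bcl2, -0.040 to 0.032 for Bid, -0.016 to 0.21 for Mcl1 and -0.23 to 0.22 for Pmaip1, and Bid was also 0.0050 with no filter. Scaling by total counts moved the median of all genes from -0.0080 to -0.030. Apart from fewer libraries and other genes tested, the causes were not tested. Bcl2 and Pmaip1 had the fewest counts, and counting noise alone gave an SD of 0.204 and 0.203 in their log2 CPM against a within-group SD of 0.346 and 0.314, while for Bax it gave 0.118 of 0.123.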
